A study of Mus musculus with 15 samples.

Results

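Whole eyes of R6/1 mice were compared with whole eyes of wild type (WT) mice, both at 6 months of age, on 7 of the 15 arrays of the study. R6/1 mice carry a transgene made of the first exon of the human huntingtin gene with an expanded CAG repeat of 131 ± 3.1 (SD) units in this colony, on a C57BL/6J background, and are symptomatic at this age. The transgene is driven by the human huntingtin promoter. The other 8 arrays held R6/2 mice at 9 weeks of age, with the same kind of transgene and 162 ± 2.8 (SD) CAG repeats, and WT mice of that age, 4 arrays of each and all C57BL/6J. They entered the fit, where they add to the estimate of the spread, and R6/2 is compared with R6/1 at the end. The controls were WT littermates of the same background and age, and the labels name no treatment. A fragment transgene models part of Huntington's disease, since both copies of the mouse gene remain. The study pooled RNA into its samples, and the number of animals behind a pool is not given in the sources used here, so p-values measure the spread between pools. The arrays titled R6/1 number 3 and those titled WT number 4, whereas the methods count them the other way round, 3 WT and 4 R6/1. The comparison was therefore made with the groups as labelled and then repeated with the array titled WT replicate 4 counted as R6/1. All 22180 genes with a probe set of their own were described, and the 11090 with the wider spread over the 15 arrays were tested. Levels are log2 RMA values, on which a step of 1 is a doubling of signal, and a gene was called when its unadjusted p was under 0.05 and its Benjamini-Hochberg adjusted p under 0.20.

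Photoreceptors are the light sensing neurons of the retina. Rods serve dim light and cones serve daylight and colour, and both convert light to a voltage by an opsin, a transducin G protein and a phosphodiesterase, with arrestins and kinases that end the response. The mouse retina holds far more rods than cones, and many mouse cones make both the short-wave and the medium-wave opsin. A whole eye also brings lens, cornea, pigment epithelium and whatever eye muscle stayed attached, so that fewer cells of a type and less RNA per cell cannot be told apart in these data.

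Markers of the eye were detected on all 7 arrays. Lens Cryaa lay between 10.80 and 11.17 on the 7 arrays, corneal Krt12 between 9.83 and 10.56, and Rpe65 of the pigment epithelium between 7.02 and 7.97. Muscle genes were detected, with Acta1 between 6.55 and 8.46, while Elovl3 of the Harderian gland stayed between 1.57 and 2.68 and Plin1 of fat between 2.86 and 3.68, against array medians of 2.78 to 2.95. The interquartile range of all probe sets was 2.17 on WT replicate 3 and 2.26 on R6/1 replicate 3, and 2.53 to 2.58 on the other 5 arrays. Mouse Htt was at 6.27, 6.28, 5.77 and 6.37 on the WT arrays and at 6.32, 6.20 and 5.79 on the R6/1 arrays. Both replicates 3 were the low ones, and since the transgene is human, this probe set is no check of the labels.

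With the groups as labelled, 6 genes were called. The short-wave cone opsin Opn1sw and the unnamed transcript BB283400 were lower in R6/1, 0.018% of the tested genes. The coiled-coil gene Ccdc175, Myom2 of the muscle M-band, the glial fatty acid binding protein Fabp7 and the membrane protein Tmem26 were higher, 0.0361% of the tested genes. At an unadjusted p under 0.05, 228 genes were lower and 117 higher.

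Opn1sw read 7.49, 7.84, 7.46 and 3.48 on WT replicates 1 to 4 and 2.91, 2.51 and 3.01 on R6/1 replicates 1 to 3. The first 3 WT arrays lay more than 4 log2 units above every R6/1 array, and the array titled WT replicate 4 lay just above them. As labelled the mean was 6.57 ± 2.06 (SD, n = 4) in WT and 2.81 ± 0.27 (SD, n = 3) in R6/1, a difference of -3.76 ± 0.70 (SE), or 7.38% of the WT level, with an adjusted p of 0.184. BB283400 read 6.13, 6.23, 5.75 and 5.42 in WT and 4.98, 4.98 and 4.87 in R6/1. Its 2 groups did not overlap, and the difference was -0.94 ± 0.19 (SE) with an adjusted p of 0.185.

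Among the higher genes, Ccdc175 had the lowest adjusted p. It read 1.82, 1.86, 1.67 and 2.22 in WT and 3.12, 2.71 and 3.13 in R6/1, which is below or near the median of the arrays. The groups did not overlap, and the difference of 1.09 ± 0.15 (SE), 2.13-fold, had an adjusted p of 0.0208. When the 7 arrays at 6 months were fitted alone, none of the 6 genes called as labelled was called again, Ccdc175 included (adjusted p 0.512). The 1 gene called in that fit was another one. Myom2, another dim gene, read 1.96, 2.1, 2.22 and 2.20 in WT and 3.0, 3.02 and 2.73 in R6/1. For this gene WT replicate 4 lay among the other 3, and the difference was 0.80 ± 0.13 (SE) with an adjusted p of 0.0659. Fabp7, which Müller glia express, read 4.82, 5.11, 4.85 and 5.79 in WT and 6.26, 6.14 and 6.52 in R6/1. Every R6/1 array was above every WT array, 2.24-fold on average, with an adjusted p of 0.184. Tmem26, a membrane protein also used as a marker of beige fat cells, read 3.16, 3.01, 3.20 and 4.96 in WT and 5.12, 5.53 and 5.12 in R6/1. WT replicate 4 again stood beside R6/1, and the difference was 1.67 ± 0.33 (SE) with an adjusted p of 0.185.

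These counts depended on single arrays. Without WT replicate 4 the fit called 41 genes lower and 12 higher, without WT replicate 1 or WT replicate 2 it called 0 lower and 1 higher, and without WT replicate 3 it called 1 lower and 2 higher. Without R6/1 replicate 1 no gene was called in either direction, without R6/1 replicate 2 the counts were 0 and 1, and without R6/1 replicate 3 they were 0 and 4. Only 2 of those 4 were among the 4 higher genes called with all arrays. The 1 gene lower without WT replicate 3 was not among the 2 lower genes called with all arrays. When the replicate number entered as a block, the fit called 57 lower and 19 higher, among them the medium-wave opsin Opn1mw (adjusted p 0.000161), cone arrestin Arr3 (0.000422), Gnat2 (0.0743), Reep6 (0.0914) and Pfkfb2 (0.156). WT replicate 4 has no partner of its number and drops out of the comparison under that block.

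**Figure D1:**
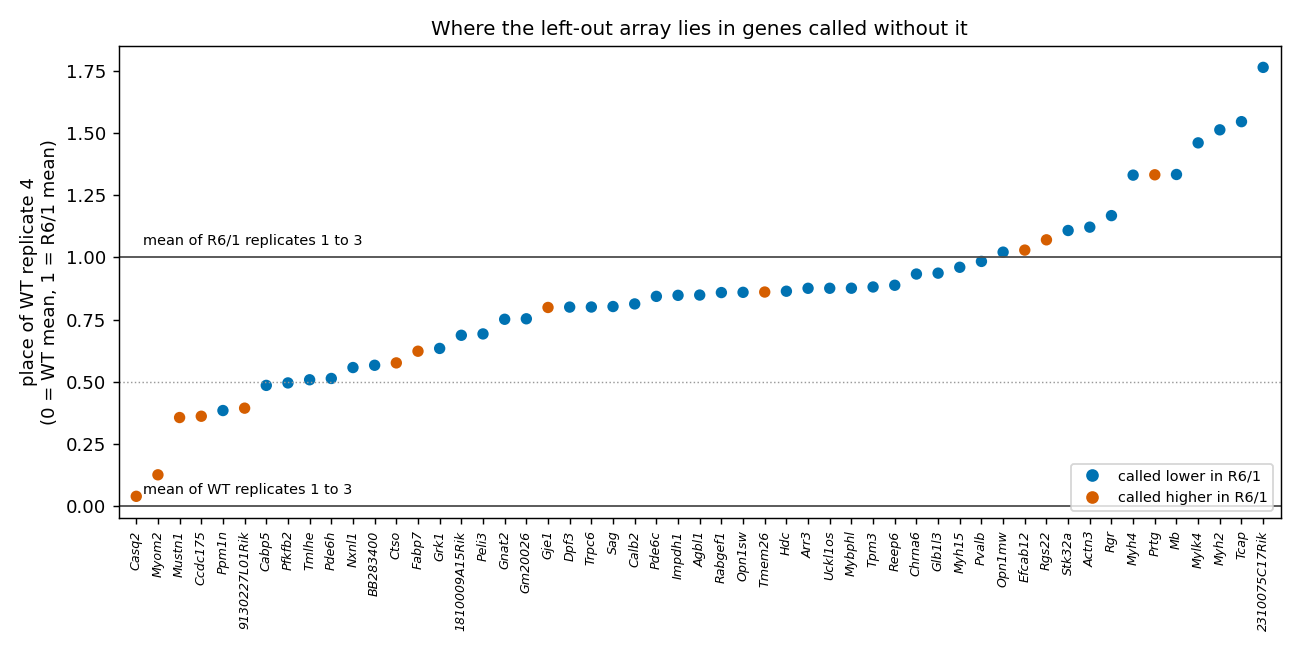
Place of the array titled WT replicate 4 for each gene called in a fit that left this array out. The vertical axis runs from 0, the mean of WT replicates 1 to 3, to 1, the mean of the R6/1 arrays, the dotted line is the midpoint, and colour gives the direction of the call; 38 of the 41 genes called lower and 7 of the 12 called higher lie nearer to R6/1.

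The array titled WT replicate 4 was then placed between the others. In the fit without it, 41 genes (0.37% of those tested) were called lower and 12 (0.108%) higher from 3 arrays against 3. On a scale from 0 at the WT mean to 1 at the R6/1 mean, this array had a median place of 0.86 over the genes called lower and lay nearer to R6/1 for 38 of them. Over the genes called higher its median place was 0.60, nearer to R6/1 for 7 of the 12. It lay nearer to WT for Ppm1n, Cabp5 and Pfkfb2 among the lower genes and for Casq2, Myom2, Mustn1, Ccdc175 and 9130227L01Rik among the higher ones. It lay beyond the R6/1 mean, at a place over 1.3, for the muscle genes Mb, Myh4, Mylk4, Myh2 and Tcap. Each of the other 6 arrays was left out in the same way, with the rest as labelled, and its place read over the 100 genes of lowest p, as a description. WT replicates 1 and 2 were nearer to R6/1 in 16 and 24 of those genes, WT replicate 3 in 61, and the R6/1 arrays in 69, 61 and 48, against 76 for WT replicate 4. Whether that array carries a wrong title was not tested. The array was chosen for the repeat with these values known, so the p-values of the repeat are no independent evidence on the genes that set it apart.

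**Figure D2:**
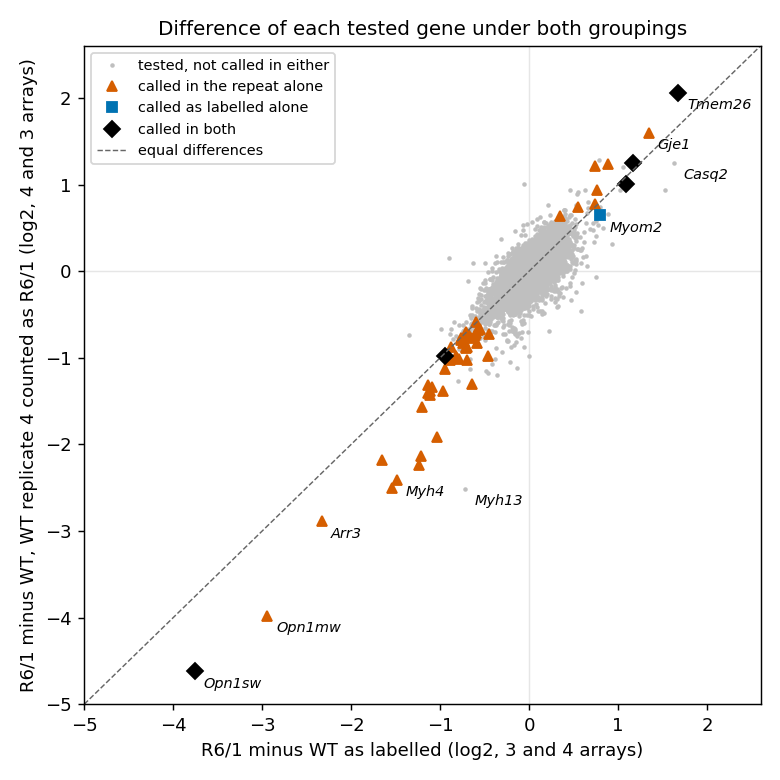
Each point is 1 of the 11090 tested genes, with the log2 difference R6/1 minus WT as labelled on the horizontal axis and with WT replicate 4 counted as R6/1 on the vertical axis. Opn1sw, Opn1mw, Arr3 and Myh4 lie below the dashed line of equal differences, and Myom2 is called as labelled alone.

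With that array counted as R6/1, 43 genes were called lower and 10 higher, 0.388% and 0.0902% of the tested genes. All 53 had the same sign with the groups as labelled, and 5 of them were called there too. In all 53 the 4 arrays counted as R6/1 lay wholly on one side of the 3 WT arrays, while over all 22180 genes 2.02% were lower and 1.71% higher without overlap. The 53 were called on these same arrays, and a call favours genes without overlap. Their lack of overlap is therefore no further evidence. The corresponding shares as labelled were 1.68% and 1.46%. Of the 53 genes, 27 belonged to a list of ocular, muscle or cellular genes and 26 to none. Counts moved by more than 1.5 times when 1 array was left out in 3 cases: 26 genes were lower without WT replicate 1, 85 were lower without WT replicate 3, and 21 were higher without R6/1 replicate 3. The replicate block gave 57 lower and 19 higher here too, because WT replicate 4 has no partner and drops out in either grouping, so the block is no check of where that array was counted.

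**Figure D3:**
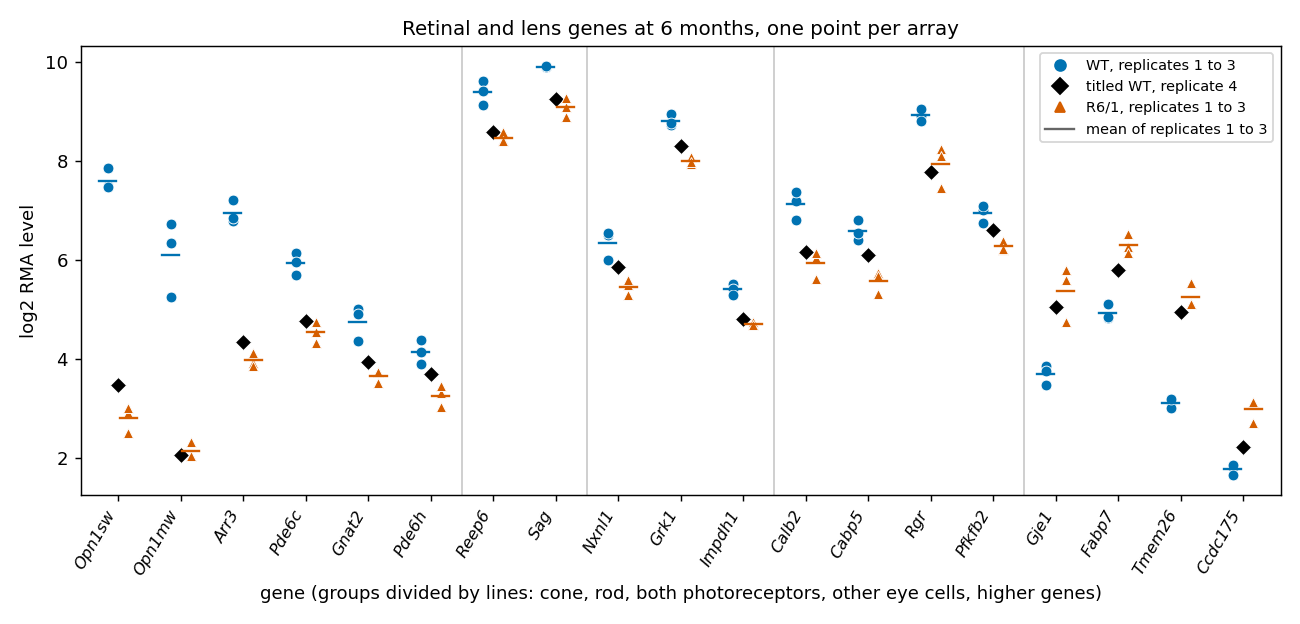
Log2 RMA level of 19 genes on each of the 7 arrays at 6 months, with WT replicates 1 to 3 as circles, the array titled WT replicate 4 as diamonds, R6/1 as triangles and short lines at the means of the 3 replicates. The diamond lies with the triangles for Opn1sw, Opn1mw and Arr3 and midway for Pde6h and Fabp7.

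The 3 largest measured falls among the called genes were those of cone genes. Of 14 cone genes measured, 12 were tested, 6 were called lower in the repeat (1 as labelled) and none higher. Over all tested genes 0.388% were called lower in the repeat and 0.018% as labelled. The median log2 difference of the list was -0.34 in the repeat and -0.46 as labelled, against 0.02 and 0.01 over all tested genes. Opn1sw, with the levels given above, averaged 7.60 ± 0.21 (SD, n = 3) in WT and 2.98 ± 0.40 (SD, n = 4) in R6/1. That is -4.62 ± 0.26 (SE), 24.6-fold lower, with an adjusted p of 2.36e-08. Opn1mw, the medium-wave opsin, read 6.33, 6.71 and 5.25 on WT replicates 1 to 3, 2.06 on WT replicate 4, and 2.05, 2.05 and 2.33 on the R6/1 arrays. The 4 low values lay below the median of their arrays, where signal over background cannot be read from the deposited values, and the gap to the lowest WT array was wider than the spread within either group. The difference was -3.98 ± 0.29 (SE), to 6.35% of the WT level, with an adjusted p of 6.44e-07, and as labelled it was -2.95 with an adjusted p of 0.423. The low values of Opn1sw were also near the array medians, so the falls of both opsins are sizes as measured and the true ones could be larger.

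Arr3, the cone arrestin that quenches activated opsin, read 6.79, 7.22 and 6.85 in WT, 4.34 on WT replicate 4 and 4.13, 3.92 and 3.87 in R6/1. It differed by -2.89 ± 0.23 (SE), to 13.5% of WT (adjusted p 1.85e-06), and without overlap in both groupings. Pde6c, which forms the catalytic part of the phosphodiesterase in cones, read 6.13, 5.97 and 5.70 in WT, 4.76 on WT replicate 4 and 4.75, 4.55 and 4.33 in R6/1. The 4 low arrays lay close together, and the fall to 39.6% of WT had an adjusted p of 0.0298. Gnat2, the alpha subunit of cone transducin, read 5.0, 4.91 and 4.36 in WT, 3.93 on WT replicate 4 and 3.73, 3.51 and 3.73 in R6/1. WT replicate 3 came closest to the lower group here, and the fall to 49.0% of WT had an adjusted p of 0.0158. Pde6h, the inhibitory subunit of the cone phosphodiesterase, fell by 0.77 on the log2 scale (adjusted p 0.0803).

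Other cone genes did not pass the test. The transducin subunit Gnb3 differed by 0.61 (adjusted p 0.683), the channel subunit Cngb3 by -0.33 and Ccdc136 by -0.34 (adjusted p 1.00 for both). For Ccdc136, WT replicate 4 at 5.09 lay among the WT arrays at 5.06, 5.23 and 4.94 and above the R6/1 arrays at 4.60, 4.81 and 4.45. The channel subunit Cnga3 and the nuclear receptor Rxrg were near 2 on all arrays and were not tested. The cone list thus held genes more than 4 log2 units apart in their differences, from -4.62 for Opn1sw to 0.61 for Gnb3.

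Of 14 rod genes measured and tested, 2 were called lower in the repeat, against 0.388% of all tested genes, and none as labelled. Their median difference was -0.40 in the repeat, with 13 of the 14 below 0. In the repeat 11 of the 14 lay lower without overlap, against 6 of the 14 cone genes and 2.02% of all genes. The 2 lists were not tested against each other. Reep6, an endoplasmic reticulum protein that rods need, read 9.62, 9.13 and 9.40 in WT, 8.57 on WT replicate 4 and 8.42, 8.58 and 8.40 in R6/1. The 4 low arrays spanned less than 0.2, and the fall to 54.0% of WT had an adjusted p of 0.0189. Sag, the rod arrestin, read 9.89, 9.90 and 9.90 in WT, 9.24 on WT replicate 4 and 8.89, 9.09 and 9.27 in R6/1. It fell to 58.5% of WT (adjusted p 0.0527). Cnga1 and Gnat1 lay lower without overlap in both groupings but did not pass the test. The channel subunit Cnga1 differed by -0.66 (adjusted p 0.380) and the transducin subunit Gnat1 by -0.34 (0.906). The transcription factor Nrl, which sets rod fate, differed by -0.57 (0.472) and was without overlap in the repeat alone.

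Among 30 genes that rods and cones share, 26 were tested and 3 called lower in the repeat, against 0.388% of all tested genes. Impdh1, which makes guanine nucleotides for the visual response, fell by 0.67 on the log2 scale (adjusted p 0.0836). Nxnl1, the source of the rod-derived cone viability factor, fell by 0.79 and the rhodopsin kinase Grk1 by 0.73 (adjusted p 0.116 for both). The disc protein Prph2 differed by -0.54 (0.425), the retinol dehydrogenase Rdh12 by -0.68 (0.275) and the transcription factor Crx by -0.30 (1.00). Over the 3 photoreceptor lists together, 58 genes were measured, 50 of them had differences below 0 in either grouping, and the median was -0.35 in the repeat and -0.36 as labelled. Without overlap lay 31 lower and 1 higher in the repeat, the transcription factor Otx2, and 29 lower and none higher as labelled. Over all genes the shares lower and higher were 2.02% and 1.71% in the repeat and 1.68% and 1.46% as labelled. WT replicate 4 was below all 3 other WT arrays in 34 of the 58 and within their range in 14.

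Promoters of these genes were read for a short core of the CRX binding site, TAATCC on either strand, since CRX is the homeobox factor of photoreceptor genes. The windows run from upstream of the start to just past it in the RefSeq set (build GRCm38.p6) and were available here for 16990 of the 22180 genes. The letters occurred in 7.71% of those genes, in 41.3% of the 46 photoreceptor genes with a window and in 23.5% of the 34 genes called lower with one. Among the 9 called photoreceptor genes with a window, Gnat2 and Sag held it. They are shown with Opn1sw, the gene of the largest fall, whose window holds neither that motif nor a MEF2 site. Capitals mark the motif, read 5′ to 3′ on the gene's strand, where it appears as the reverse complement GGATTA, from position -19 in Gnat2 (chr3:108092816-108093115, plus strand) and -87 in Sag (chr1:87803430-87803729, plus strand). Opn1sw lies at chr6:29380464-29380763 on the minus strand.
Gnat2: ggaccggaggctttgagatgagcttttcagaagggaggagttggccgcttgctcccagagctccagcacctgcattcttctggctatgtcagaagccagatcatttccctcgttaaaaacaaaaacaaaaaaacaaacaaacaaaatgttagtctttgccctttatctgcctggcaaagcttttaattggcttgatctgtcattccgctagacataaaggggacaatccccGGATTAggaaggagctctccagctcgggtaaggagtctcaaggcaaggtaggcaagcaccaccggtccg
Sag: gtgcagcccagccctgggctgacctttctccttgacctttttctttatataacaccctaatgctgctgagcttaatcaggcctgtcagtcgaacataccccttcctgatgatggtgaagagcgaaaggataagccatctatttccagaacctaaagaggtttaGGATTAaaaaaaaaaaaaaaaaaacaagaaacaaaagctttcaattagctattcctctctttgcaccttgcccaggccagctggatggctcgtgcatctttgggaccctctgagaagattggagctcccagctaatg
Opn1sw: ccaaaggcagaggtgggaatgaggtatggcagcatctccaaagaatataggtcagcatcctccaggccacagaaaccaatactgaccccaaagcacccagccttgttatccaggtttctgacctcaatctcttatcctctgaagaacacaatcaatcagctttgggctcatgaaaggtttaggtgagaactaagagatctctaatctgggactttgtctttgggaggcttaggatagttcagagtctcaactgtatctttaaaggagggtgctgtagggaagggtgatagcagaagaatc

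Of the other retinal and eye cells, few genes were called. Calb2, the calretinin of amacrine and ganglion cells, read 7.19, 7.37 and 6.80 in WT, 6.15 on WT replicate 4 and 6.05, 6.14 and 5.61 in R6/1. It fell to 45.6% of WT (adjusted p 0.0176). Cabp5, a calcium-binding protein of bipolar cells, read 6.40, 6.80 and 6.54 in WT, 6.10 on WT replicate 4 and 5.32, 5.75 and 5.68 in R6/1. WT replicate 4 lay midway, and the difference of -0.87 had an adjusted p of 0.198. Rgr, an opsin of the pigment epithelium and Müller cells, read 8.90, 8.80 and 9.04 in WT, 7.77 on WT replicate 4 and 7.46, 8.24 and 8.09 in R6/1. It fell to 49.2% of WT (adjusted p 0.0326). Pfkfb2, which sets the fructose-2,6-bisphosphate level that drives glycolysis, read 7.01, 7.09 and 6.75 in WT, 6.61 on WT replicate 4 and 6.21, 6.39 and 6.22 in R6/1. It differed by -0.59 in both groupings, with an adjusted p of 0.191 in the repeat and 0.423 as labelled.

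Few other members of these lists were called. Among 21 amacrine and horizontal cell genes 12 were tested and 2 called lower, Calb2 and Pvalb, the latter also a muscle gene. The median of that list was -0.08 in the repeat and -0.16 as labelled. The calbindin gene Calb1 differed by -0.73 in the repeat (adjusted p 0.730) and by -0.89 as labelled (0.639), since WT replicate 4 at 5.77 lay with the WT arrays. Of 17 bipolar genes 13 were tested and 1 called, and of 20 pigment epithelium and visual cycle genes 16 were tested and 1 called. None of the 12 tested ganglion cell genes or of the 12 tested genes of the photoreceptor ribbon synapse was called, with medians of -0.16 and 0.01. Over all tested genes 0.388% were called lower in the repeat, so no call among 12 genes is near that share. Of the Müller glia and astrocyte genes 15 were tested and Fabp7 alone was called. The stress marker Gfap differed by 0.20 (adjusted p 1.00).

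**Figure D4:**
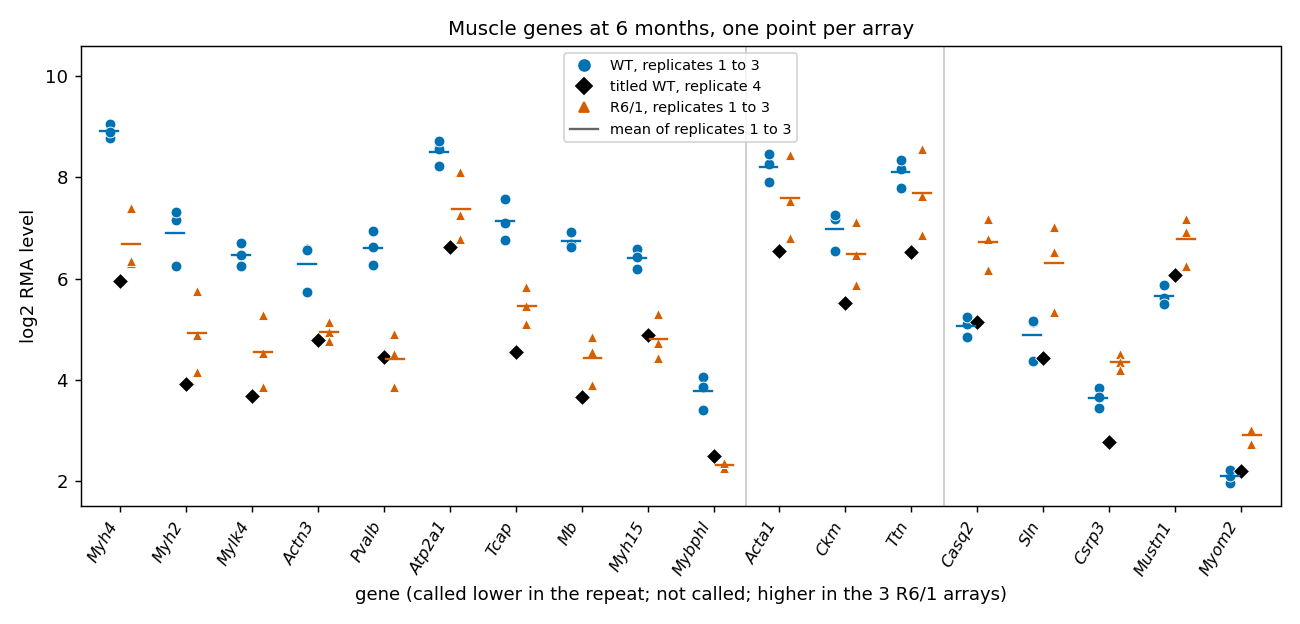
Log2 RMA level of 18 muscle genes on each of the 7 arrays at 6 months, with symbols as for the retinal genes. In the left block the diamond of the array titled WT replicate 4 lies at or below the R6/1 triangles for most genes, whereas for Casq2, Sln and Myom2 on the right it lies with the WT circles.

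Of the 69 tested genes of the muscle lists 10 were called lower in the repeat, against 0.388% of all tested genes. They made up 10 of the 43 genes called lower, a count that depends on the lists. The tropomyosin Tpm3, for example, was called lower but is in none of them. Striated muscle contracts by myosin heads walking on actin, and each fibre type has its own myosin, calcium pump and binding proteins; the muscles that move the eye carry several forms found in few other places. Of 19 genes of fast muscle, all were tested, 6 were called lower in the repeat and none as labelled. The median difference was -0.86 in the repeat and -0.24 as labelled. The mean level of this list was 6.87, 7.05 and 6.47 on WT replicates 1 to 3, 6.35, 5.90 and 5.44 on the R6/1 arrays and 5.11 on WT replicate 4, so that the array in question was the lowest.

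Myh4, the fastest limb myosin, read 8.78, 9.05 and 8.91 in WT, 5.95 on WT replicate 4 and 7.40, 6.31 and 6.36 in R6/1. In the repeat it fell to 18.8% of WT (adjusted p 0.0194), and the percentages that follow are of the repeat unless named otherwise. Myh2, the myosin of fast oxidative fibres, read 7.16, 7.33 and 6.25 in WT, 3.91 on WT replicate 4 and 5.75, 4.88 and 4.15 in R6/1. WT replicate 3 and R6/1 replicate 1 came closest to each other, and the fall to 21.2% of WT had an adjusted p of 0.00574. Mylk4, a kinase of the myosin light chain kinase family, read 6.71, 6.46 and 6.25 in WT, 3.68 on WT replicate 4 and 5.29, 4.54 and 3.85 in R6/1. It fell to 22.7% of WT (adjusted p 0.00574). The calcium buffer Pvalb read 6.63, 6.94 and 6.27 in WT, 4.46 on WT replicate 4 and 4.50, 4.90 and 3.86 in R6/1. WT replicate 4 lay inside the R6/1 range here, and Pvalb fell to 22.0% of WT (adjusted p 0.000335). Actn3, the alpha-actinin of fast fibres, read 6.59, 6.58 and 5.73 in WT, 4.79 on WT replicate 4 and 5.14, 4.94 and 4.77 in R6/1, a fall to 38.2% of WT (adjusted p 0.0176). The calcium pump Atp2a1 differed by -1.30 (adjusted p 0.179) and was not called without WT replicate 4 (adjusted p 0.489). As labelled none of these 6 genes was called. Myh4 was then at 35.7% of WT, Myh2 at 42.5%, Mylk4 at 43.0%, Pvalb at 31.8%, Actn3 at 51.1% and Atp2a1 at 63.9%.

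Of 24 genes of slow, cardiac and extraocular muscle, 20 were tested, 3 were called lower in the repeat and none higher. Over all tested genes 0.388% were called lower in the repeat. As labelled none was called in either direction, and Mb, Myh15 and Mybphl were at 34.3%, 43.3% and 45.4% of WT. Without overlap lay 5 lower in the repeat, and 1 lower and 4 higher as labelled. The shares over all genes were 2.02% lower in the repeat, and 1.68% lower and 1.46% higher as labelled. Mb, the oxygen store myoglobin, read 6.68, 6.92 and 6.62 in WT, 3.66 on WT replicate 4 and 4.54, 4.86 and 3.89 in R6/1. In the repeat it fell to 17.6% of WT (adjusted p 0.000313), and the percentages that follow are of the repeat unless named otherwise. Myh15, a slow myosin of eye muscles, read 6.59, 6.44 and 6.19 in WT, 4.88 on WT replicate 4 and 5.30, 4.73 and 4.43 in R6/1, a fall to 33.6% of WT (adjusted p 0.00646). Mybphl, a myosin-binding protein of striated muscle, read 4.06, 3.87 and 3.40 in WT, 2.50 on WT replicate 4 and 2.26, 2.35 and 2.35 in R6/1. Its groups did not overlap in either grouping, and it fell to 37.6% of WT (adjusted p 0.0136). Tcap, the cap of titin at the Z-disc and the 1 gene called in the repeat among 30 tested of the sarcomere at large, read 7.10, 7.58 and 6.76 in WT, 4.54 on WT replicate 4 and 5.83, 5.45 and 5.10 in R6/1, a fall to 26.5% of WT (adjusted p 0.00574). As labelled Tcap was at 48.8% of WT and was not called. Myh13, the superfast myosin of eye muscles, read 7.65, 8.20 and 7.16 in WT, 3.16 on WT replicate 4 and 7.0, 5.46 and 5.02 in R6/1. Its spread was wide, and the difference of -2.51 in the repeat and -0.72 as labelled was not called (adjusted p 0.213 in the repeat).

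Casq2, Sln, Csrp3 and Mustn1 read higher on the 3 arrays titled R6/1, although none of the 4 was called in either grouping. Casq2, the calcium store protein of slow and cardiac muscle, read 5.11, 5.24, 4.86 and 5.14 on WT replicates 1 to 4 and 7.19, 6.79 and 6.17 in R6/1. All 4 WT arrays lay together, and as labelled the difference was 1.63 ± 0.35 (SE) with an adjusted p of 0.278, which misses the threshold; without WT replicate 4 it was called (adjusted p 0.123). Sln, the sarcolipin that restrains the calcium pump, read 5.14, 5.16, 4.36 and 4.42 in WT and 7.03, 6.54 and 5.34 in R6/1, a difference of 1.53 with an adjusted p of 0.423. Csrp3, a Z-disc protein of slow and cardiac muscle, read 3.83, 3.44, 3.66 and 2.77 in WT and 4.52, 4.35 and 4.20 in R6/1, a difference of 0.93 with an adjusted p of 0.407. Mustn1, a nuclear protein of muscle and skeleton, read 5.88, 5.62, 5.50 and 6.06 in WT and 7.17, 6.92 and 6.25 in R6/1, a difference of 1.02 with an adjusted p of 0.50.

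Levels of muscle genes were not the same on all arrays. Over 77 muscle genes measured in the 3 lists, WT replicate 4 was below all other WT arrays in 67 and the lowest of the 7 arrays in 55, and it was within the range of the other WT arrays in 10. The median difference of those genes was -0.47 in the repeat and -0.05 as labelled. In the repeat 10 were called lower, 9 of them also without WT replicate 4, and as labelled none was called lower. Acta1 and Ttn, structural genes of all fibres, overlapped between the groups. Acta1 read 8.27, 8.46 and 7.91 in WT, 6.55 on WT replicate 4 and 8.44, 7.53 and 6.80 in R6/1, and Ttn 8.16, 8.35 and 7.79, then 6.52, then 8.56, 7.64 and 6.86. R6/1 replicate 1 was the highest of the 7 arrays for Ttn and near the top for Acta1. How much muscle stayed on each eye is not given in the sources used here, and its part in the falls was not tested.

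MEF2 factors bind an AT-rich site in many muscle genes, and the consensus of that site, searched on both strands, occurred in 3.14% of the promoter windows of all genes, in 24.1% of the 58 muscle genes with a window and in 3 of the 8 called ones. The windows of the 2 called myosin-related genes with a match are shown, with the match in capitals, from position -182 in Myh4 (chr11:67237562-67237861, plus strand) and -103 in Mylk4 (chr13:32783915-32784214, minus strand). A match is a description of the letters and no evidence that the factor binds.
Myh4: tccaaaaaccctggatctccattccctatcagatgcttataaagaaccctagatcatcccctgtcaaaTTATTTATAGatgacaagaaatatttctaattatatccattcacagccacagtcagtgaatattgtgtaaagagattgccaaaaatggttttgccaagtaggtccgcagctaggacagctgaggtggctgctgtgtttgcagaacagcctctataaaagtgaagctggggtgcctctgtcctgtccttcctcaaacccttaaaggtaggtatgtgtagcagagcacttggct
Mylk4: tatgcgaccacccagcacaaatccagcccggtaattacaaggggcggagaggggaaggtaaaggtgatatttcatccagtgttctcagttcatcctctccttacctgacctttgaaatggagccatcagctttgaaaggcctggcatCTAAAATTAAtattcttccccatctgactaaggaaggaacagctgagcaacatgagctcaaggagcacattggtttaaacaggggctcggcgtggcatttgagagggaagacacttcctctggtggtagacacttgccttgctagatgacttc

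The remaining genes called lower, 18 of the 43, were in no list. Glb1l3, a galactosidase-like gene, read 6.11, 6.31 and 5.12 in WT, 4.49 on WT replicate 4 and 4.14, 4.70 and 4.34 in R6/1, a fall to 37.1% of WT (adjusted p 0.0156). Uckl1os, a transcript opposite Uckl1, read 5.55, 5.02 and 4.43 in WT, 3.75 on WT replicate 4 and 3.27, 3.97 and 3.48 in R6/1 (38.3% of WT, adjusted p 0.0176). Gm20026 read 4.71, 5.33 and 4.95 in WT, 3.94 on WT replicate 4 and 3.58, 3.16 and 4.04 in R6/1 (40.1% of WT, adjusted p 0.0403). In Glb1l3 and Uckl1os, WT replicate 3 was the WT array nearest to R6/1. The nicotinic receptor subunit Chrna6 fell by 1.02 on the log2 scale (adjusted p 0.0403), the histamine-making enzyme Hdc by 1.00 (0.0417) and the chromatin remodelling subunit Dpf3 by 0.98 (0.0243). The Rab5 exchange factor Rabgef1, bright at 8.82, 8.97 and 8.70 in WT, fell by 0.87 (0.0206). The cation channel Trpc6 fell by 0.68 (0.0298), the carnitine synthesis enzyme Tmlhe by 0.71 (0.121), the ubiquitin ligase Peli3 by 0.81 (0.180) and the tubulin deglutamylase Agbl1 by 0.74 (0.0803). The kinase Stk32a, the transcripts 2310075C17Rik, 1810009A15Rik and Dbhos, and Smco1 completed this group together with BB283400 and the tropomyosin Tpm3. Tpm3 is uncertain, because the probe set used differed by -0.87 and its other probe set by -0.03.

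Of the 10 genes called higher, 8 were in no list. Tmem26 averaged 3.12 ± 0.10 (SD, n = 3) in WT and 5.18 ± 0.25 (SD, n = 4) in R6/1 in the repeat, 4.16-fold, with an adjusted p of 6.44e-07. Gje1, a connexin-like gap junction gene of the lens, read 3.86, 3.49 and 3.76 in WT, 5.04 on WT replicate 4 and 5.60, 5.79 and 4.75 in R6/1. It was 3.02-fold higher (adjusted p 0.000867) and the only one of 26 tested lens genes to be called, the median of that list being 0.11. Fabp7 was 2.37-fold higher (adjusted p 0.00574). Rgs22, of the family that shortens G protein signals, read 2.62, 2.57 and 2.67 in WT, 3.92 on WT replicate 4 and 3.84, 4.18 and 3.48 in R6/1, 2.35-fold higher (adjusted p 0.00594). Prtg, an immunoglobulin family receptor of the developing nervous system, read 3.22, 3.13 and 2.88 in WT, 4.56 on WT replicate 4 and 4.63, 4.08 and 3.86 in R6/1, 2.31-fold higher (adjusted p 0.0203). For both genes WT replicate 4 was among the higher values.

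The last 5 rises were smaller. Ccdc175 was 2.01-fold higher in the repeat (adjusted p 0.0189). The helix-loop-helix gene Tcf24 read 3.50, 3.35 and 3.02 in WT, 4.12 on WT replicate 4 and 4.77, 4.25 and 3.77 in R6/1 (adjusted p 0.198). The protease cathepsin O, Ctso, read 5.06, 5.31 and 5.03 in WT, 5.64 on WT replicate 4 and 5.90, 6.17 and 5.94 in R6/1, 1.71-fold higher (adjusted p 0.0724). The EF-hand gene Efcab12 read 2.84, 2.75 and 3.06 in WT, 3.64 on WT replicate 4 and 3.65, 3.59 and 3.61 in R6/1 (adjusted p 0.0610). The Ras inhibitor Rasa2 read 6.22, 5.96 and 5.77 in WT, 6.85 on WT replicate 4 and 6.67, 6.57 and 6.41 in R6/1 (adjusted p 0.124). With the replicate block, which leaves WT replicate 4 out of the comparison, Efcab12, Rasa2 and, among the lower genes, Dbhos were no longer called (adjusted p 0.265 for each).

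**Figure D5:**
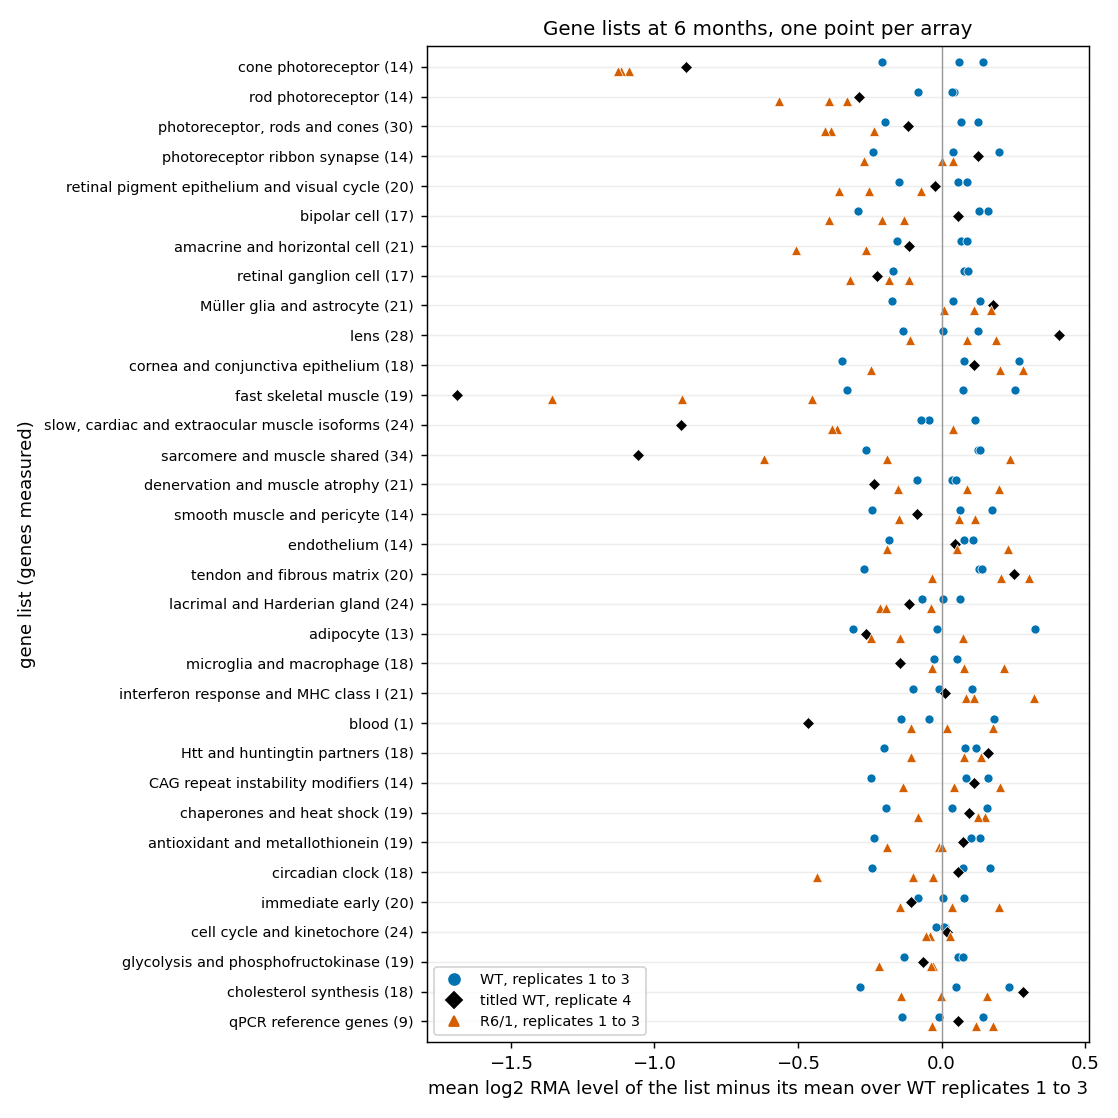
Mean log2 RMA level of each of 33 gene lists on each of the 7 arrays, as the distance from the mean of WT replicates 1 to 3, with the number of genes measured in parentheses. The cone, rod, shared photoreceptor, amacrine and horizontal cell, and fast muscle lists separate the R6/1 triangles from the WT circles, some narrowly. The amacrine and horizontal cell list has means of 4.03 on WT replicate 3 and 3.92 on R6/1 replicate 1. Its members Pvalb, also a muscle gene, and Calb2 read 6.27 and 6.80 on the first of these arrays and 4.50 and 6.05 on the second. The median difference of that list was only -0.08 in the repeat. Circles and triangles of the other lists overlap, and the 3 muscle lists place the diamond of WT replicate 4 lowest.

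Most lists held no called gene. In 21 of the 33 lists, with 352 genes measured, no member was called in either grouping, and their medians ran from -0.23 to 0.14 in the repeat and from -0.21 to 0.15 as labelled. Not all of those genes were tested. Calls were rare over all tested genes, 0.388% lower and 0.0902% higher in the repeat and 0.018% and 0.0361% as labelled. The absence of calls is near those shares and does not show that these genes were unchanged. These lists covered, among others, cornea, glands, fat, vessels, macrophages, the interferon response, chaperones, antioxidant genes, clock genes, the cell cycle, cholesterol synthesis, Htt and its partners, and modifiers of repeat instability. In the clock list the repressor Bhlhe41 read 6.59, 6.56, 6.04 and 6.27 on WT replicates 1 to 4 and 5.75, 5.87 and 5.35 in R6/1. All R6/1 arrays were lower, but the difference of -0.71 as labelled had an adjusted p of 0.423. Of the qPCR reference genes, Actb differed by 0.19 in the repeat and Hprt by 0.19 (adjusted p 1.00 for both), and Gapdh by -0.07 without being tested.

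The same genes were read in R6/2 mice, a faster model with a transgene of the same kind, compared at 9 weeks with WT arrays of their own age, 4 against 4. That comparison shares no array with the one at 6 months, although both were fitted together. In the fit of the repeat it called 35 genes (0.316% of those tested) lower and 27 (0.243%) higher, and in the fit as labelled 11 (0.0992%) and 8 (0.0721%). All 43 genes called lower in R6/1 and all 10 called higher had the same sign in R6/2, and 19 and 5 of them were called the same way there. The share of same signs over all tested genes was not taken, so the sign counts have no background to be read against. In the fit as labelled, 7 and 2 of them were called the same way in R6/2, whose own arrays and differences are the same in both fits. Their differences were larger in R6/1 for 38 of the 43 and for 10 of the 10, but these genes were chosen for their size in R6/1. No gene was called for the difference between the models in either grouping, with 339 genes at an unadjusted p under 0.05 in the repeat and 302 as labelled. Among the 53 genes, 11 had an unadjusted p under 0.05 for that difference. Gje1 was higher by 1.60 in R6/1 and 0.50 in R6/2, a difference of 1.10 ± 0.28 (SE) with an unadjusted p of 0.00112 and an adjusted p of 0.995. Trpc6 differed by -0.68 and -0.09, with an unadjusted p of 0.00457. Opn1sw differed by -4.62 and -4.14 in the 2 models and Fabp7 by 1.25 and 1.13.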

How the data were processed

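Whole eye RNA of R6/1 and WT mice at 6 months, and of R6/2 and WT mice at 9 weeks, was hybridised by the authors to 15 Mouse Gene 2.1 ST arrays. The deposited values are log2 signals that the authors made with RMA (affy), after background correction, normalization over all arrays and summary of the probes of a set. The methods name a WT Plus labelling kit and the labels an IVT Express kit. Groups were taken from the array titles.

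Of 41345 probe sets, 23521 had 1 gene symbol, 1820 had several and 16004 had none. A gene with several probe sets (1082 genes) was represented by the one of highest mean. The 50% of genes with the larger interquartile range over all arrays were kept. A model with 4 group means over the 15 arrays was estimated by limma (version 3.58.1, under R 4.3.3) and moderated by eBayes, p-values were adjusted over the 11090 genes by Benjamini-Hochberg, and the fit was tested on simulated data. The text names all called genes, gives the 16 largest falls and 10 largest rises array by array, and adds genes the study measured by qPCR, Htt, reference genes, tissue markers and list members of lowest p. C1ql3 and the rod opsin gene were not analysed here.

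The members, the gene lists (664 distinct genes, 605 measured, 433 tested, 3 of them matched by synonym) and the repeat with WT replicate 4 counted as R6/1 were chosen with earlier results of these data known. The deviations from group means of WT and R6/1 replicates 1, 2 and 3 had r = 0.41, 0.34 and 0.75 over tested genes as labelled. Between replicates 1 and 2 of the other group r was 0.31 and 0.25. Between a replicate 3 and replicates 1 or 2 of the other group it ran from -0.55 to -0.41. Deviations within a group cancel out for each gene. A high r between the replicates 3 therefore brings negative values with the others, and these are no separate evidence. The pair that stood out was replicates 3, at r = 0.75, and replicates 1 and 2 were hardly told apart by number. The labels name no pairing, so the block by replicate number rests on these values alone. With the block WT replicate 4, which has no partner, drops out. Alternatives covered the filters, the arrays fitted, quantile normalization, array weights, the interquartile range of the array as covariate, the probe set, eBayes trend and robust settings, the block and each array left out.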

Additional observations from a re-analysis of the deposited data

Results flagged for a closer look

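In 9 of the 64 groups of 4 arrays looked at (32 genes, each with the 4 WT arrays as labelled and with the 4 arrays counted as R6/1 in the repeat), 1 array lay far from the other 3. Chance marks about 1 in 20 groups of genes taken at random, but most of these genes were named for a call that needs WT replicate 4 to lie with R6/1, so that rate is no test of the pattern. In 7 of the 9 it was the array titled WT replicate 4 against the other WT arrays: it was low for Opn1sw (3.48), Arr3 (4.34), Mb (3.66), Myh4 (5.95) and Mylk4 (3.68) and high for Rgs22 (3.92) and Tmem26 (4.96). In WT, Htt was low on replicate 3 (5.77), the WT array of smallest interquartile range. Among the 4 arrays counted as R6/1, Opn1mw stood apart on R6/1 replicate 3 (2.33), where the other 3 lay at 2.05 to 2.06.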

How the results depend on the processing

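As labelled, 2 genes were lower and 4 higher. The counts became 0 and 2 without the variance filter, 0 and 1 with the 7 arrays alone, 0 and 2 after quantile normalization, 61 and 21 with array weights, 6 and 9 with the interquartile range of the array as covariate, 57 and 19 with the replicate block, 0 and 3 with trend and robust settings, and 2 and 2 with a filter on dim genes. The 1 gene higher with the 7 arrays alone was not among the 4 of the main fit. Leaving out 1 array gave 0 to 41 lower and 0 to 12 higher. Leaving out replicates 3 of both groups, chosen after seeing the data, gave 0 and 1. In the repeat, 43 were lower and 10 higher. These became 75 and 22 after quantile normalization, 183 and 48 with array weights, 96 and 36 with the covariate, and 57 and 19 with the block, of which 42 and 8 were shared with the 43 and 10. Under the block WT replicate 4 drops out, so both groupings give the same comparison and the block is no check of the repeat. Leaving out 1 array gave 26 to 85 lower and 7 to 21 higher. The cause of these changes was not tested. Of the 53 genes called in the repeat, 27 stayed called under all 14 alternatives run for single genes and none changed sign; Atp2a1, Cabp5, Dbhos, Grk1, Peli3, Rasa2 and Tcf24 were lost in 7 or more. As labelled, Opn1sw, BB283400, Fabp7 and Tmem26 were lost in 10 of the 14, Myom2 in 5 and Ccdc175 in 3. Signal over background cannot be read from the deposited values, so the reach of the dim genes is unknown.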

Other observations

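The same fit was run over the probe sets with several gene symbols or none, of which 8912 passed the filter on spread. limma called 0 of them in either direction as labelled or in the repeat, with 284 and 316 at an unadjusted p under 0.05, and their differences in the repeat ran from -2.38 to 2.61 on the log2 scale.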
